A study of Mus musculus with 21 samples.

Results

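The genes described are the subunits of protein kinase A (PKA) and the adenylyl cyclases that make its activator, cyclic AMP, in mouse cortex 24 h after high-frequency head impact (HF-HI). The set was listed by gene symbol as 10 genes, and 9 of them were found among the 5544 genes of the table: the catalytic subunits Prkaca and Prkacb, the regulatory subunits Prkar1a, Prkar1b and Prkar2b, and the cyclases Adcy1, Adcy2, Adcy5 and Adcy9. The regulatory subunit Prkar2a was not analysed here. Bulk RNA-seq was made from dissected cortex of male C57BL/6 mice, wild type by the column names and labelled 12 weeks old, with 10 libraries in the sham group and 11 in the HF-HI group. HF-HI mice received repeated closed-skull impacts on successive days under isoflurane, while isoflurane with no impact delivered made up the sham treatment, so that exposure to the anesthetic was common to both groups. Each value is a library's read count for a gene after DESeq2 normalization and variance stabilization, on a log2 scale, and differences are given as HF-HI minus sham on that scale.

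Receptors coupled to the stimulatory G protein switch adenylyl cyclases on, receptors coupled to inhibitory G proteins switch them off, and phosphodiesterases break cyclic AMP down again. PKA is held inactive as a complex of regulatory and catalytic subunits, and binding of cyclic AMP to the regulatory subunits frees the catalytic ones to phosphorylate their targets. In neurons these targets include glutamate receptors, synaptic vesicle proteins and the transcription factor CREB, and the pathway is known for its part in synaptic plasticity and memory.

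In the comparison of the groups, 4 of the 9 genes passed the test (limma across all 5544 genes, Benjamini-Hochberg adjusted p under 0.05), with 3 higher and 1 lower in HF-HI cortex. Of all genes tested, 66.3% passed, 32.6% with a higher value in HF-HI and 33.6% with a lower one, so the count of the PKA and cyclase genes was not above this background. The 3 that rose were Prkaca, by 0.54, Prkar1b, by 0.41, and Adcy1, by 0.16, and the gene that fell was Prkacb, by 0.082. Among the catalytic subunits Prkaca rose while Prkacb fell, and among the regulatory subunits Prkar1b rose while Prkar1a and Prkar2b did not pass the test, a contrast of the regulatory genes that was not itself tested. None of the 9 genes had groups that were fully apart, whereas 13.5% of all genes did.

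**Figure D1:**
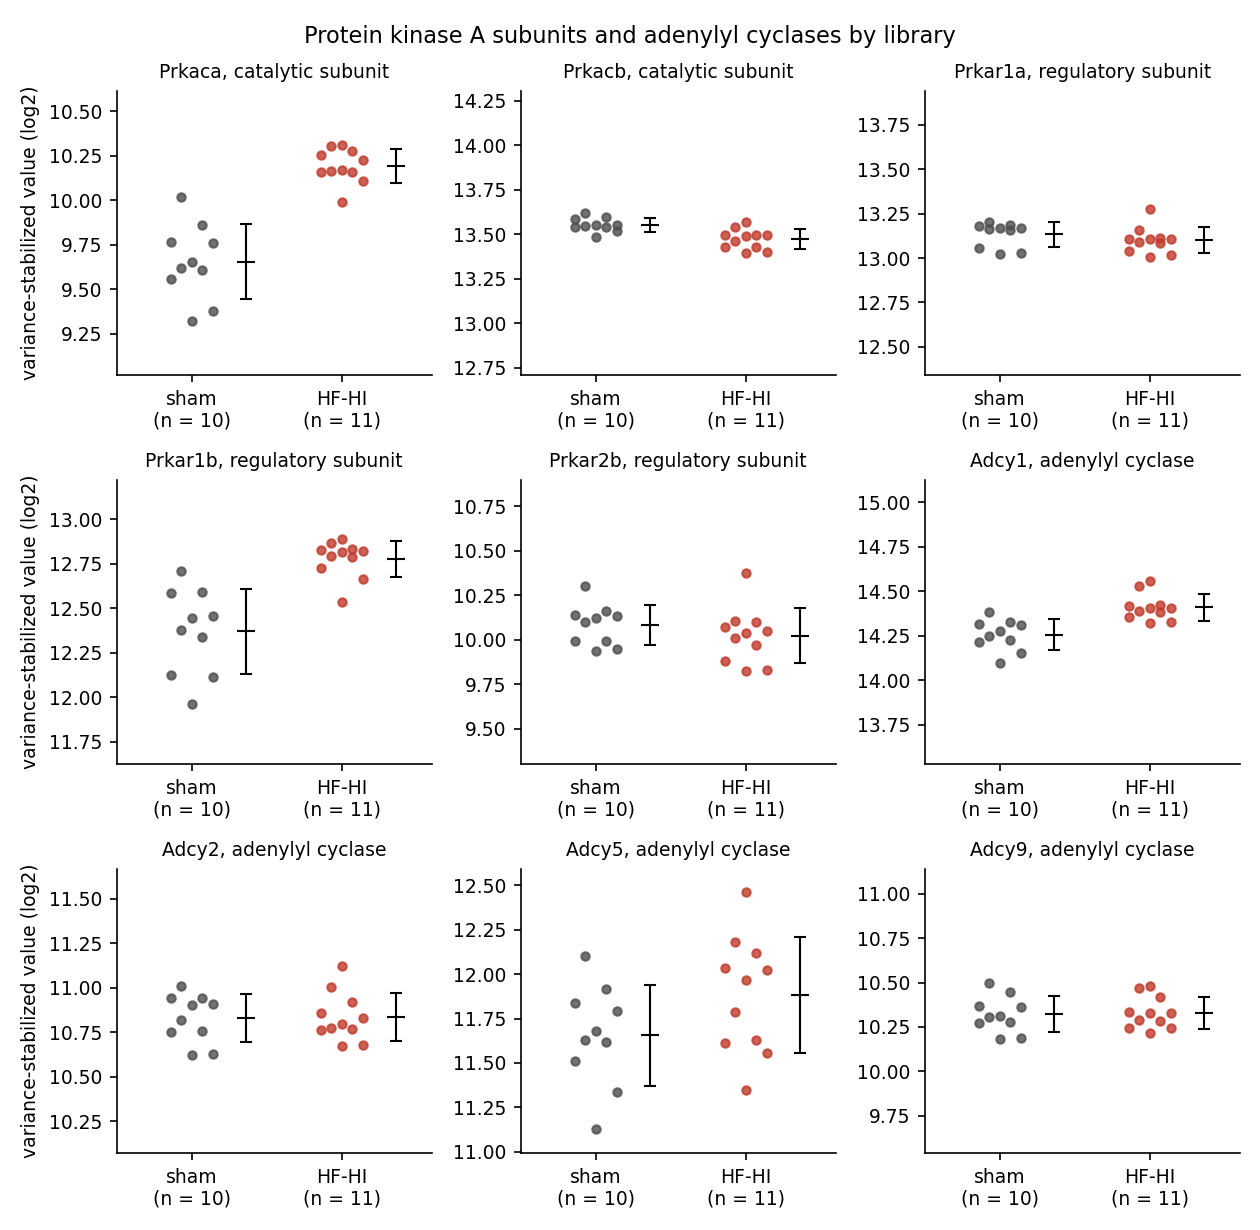
Variance-stabilized value (log2, vertical axis) of each of the 9 genes in every library, sham in grey (n = 10) and HF-HI in red (n = 11), with the mean and SD of each group as a black bar; points are spread sideways only to be seen. Every panel spans the same height, and the groups stand farthest apart for Prkaca and Prkar1b.

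Library properties that differed between the groups bear on these values. The median value of a library lay between 9.68 and 9.72 in sham and between 9.73 and 9.76 in HF-HI, with no overlap. With library medians set equal the differences were 0.49 for Prkaca, 0.36 for Prkar1b, 0.10 for Adcy1 and -0.13 for Prkacb, all still past the test. How steeply values rose with the exonic GC content of genes, set against the mean of all libraries, was taken as the GC slope of a library. It lay between -0.23 and 0.0058 per 10% GC in sham and between -0.039 and 0.16 in HF-HI, and 10 of the 11 HF-HI libraries had a slope above all sham libraries. Mean relative depth was 0.864 in sham and 1.15 in HF-HI, and 5 of the 11 HF-HI libraries were deeper than every sham library. With depth as a covariate the differences were 0.52 for Prkaca, 0.35 for Prkar1b, 0.15 for Adcy1 and -0.064 for Prkacb, all still past the test. HF-HI libraries 9 and 11 had the lowest slopes of their group and were also its shallowest, with a relative depth of 0.573 and 0.548 where the range over all libraries was 0.548 to 1.64. Without them 4 of the 9 genes passed the test, 3 higher and 1 lower, with differences of 0.57 for Prkaca, 0.43 for Prkar1b, 0.16 for Adcy1 and -0.10 for Prkacb. The summed level of 8 neuron markers was 16.0 to 16.18 in sham and 16.19 to 16.38 in HF-HI, with no overlap. Of these markers 6 rose, or 75%, where 32.6% of all genes passed the test as higher and 66.3% in either direction. Slc17a7 rose by 0.89, Rbfox3 by 0.83 and Stmn2 by 0.70, but Snap25 only by 0.15, Syt1 by 0.14 and Tubb3 by 0.12. Gad1 (-0.097) and Nefl (-0.0039) did not pass, and the median difference of the 8 was 0.15. Exons of Slc17a7, Rbfox3 and Stmn2 are 56.0%, 59.0% and 42.4% GC, and those of Snap25, Syt1 and Tubb3 are 39.2%, 43.1% and 57.9%. Of the astrocyte markers 3 rose and 2 fell out of 8, of the oligodendrocyte markers 2 of 7 rose, and the 2 endothelial markers analysed moved in opposite directions (Flt1 by 0.28 and Slco1a4 by -0.24). In bulk tissue fewer cells of a type and less RNA per cell cannot be told apart, and the part of cell composition in the values below was not tested.

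Prkaca encodes the alpha catalytic subunit, which carries most PKA activity in many tissues. The gene lies on chromosome 8 of GRCm38 (mm10) at 83972993-83996443 on the plus strand, and its exons are 55.1% GC, where the median gene of the table has 47.6%. In sham cortex its value was 9.32 in the lowest library, 9.64 at the median and 10.02 in the highest, and in HF-HI cortex it was 9.99, 10.17 and 10.31. Of the 11 HF-HI libraries 10 lay above every sham library, and the only overlap was between sham library 10 and HF-HI library 9. The difference was 0.54 with an SE of 0.0655 (95% confidence interval 0.40 to 0.67, adjusted p = 3.0e-07, limma), which is a 1.45-fold higher level. Its size exceeded that of 95.02% of all genes in absolute terms.

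Prkacb encodes the beta catalytic subunit, the form that is best known from brain, and lies on chromosome 3 at 146729574-146812990 on the minus strand with exons of 44.3% GC. Its values ran from 13.49 through a median of 13.55 to 13.62 in sham and from 13.40 through 13.49 to 13.57 in HF-HI. The groups overlapped, with 5 of 11 HF-HI libraries below every sham library. The difference of -0.082 (SE 0.0257, 95% confidence interval -0.13 to -0.028, adjusted p = 0.0078, limma) is a level of 0.945 times that of sham. Once the GC trend of every library was removed (a smooth curve of its values on exonic GC content) it was -0.0039 (adjusted p = 0.89, limma), and the call was lost.

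The catalytic subunits are close relatives, and their transcripts can nevertheless be told apart base by base. The coding sequences of the transcripts Prkaca-201 and Prkacb-202 align without a gap over 1053 bases and differ at 208 of them, 163 of these at codon position 3, while 321 of the 351 residues they encode are identical. The stretch that codes for the activation loop of the kinase, the segment whose phosphorylation makes the enzyme active, is shown because it encodes the same 25 residues in both genes and still differs at 16 of its 75 bases. Both stretches lie in exon 7 of 10, at chr8:83990663-83990737 on the plus strand for Prkaca and at chr3:146746600-146746674 on the minus strand for Prkacb (GRCm38, sequences from the GENCODE transcripts), written 5′ to 3′ with the differing bases in capitals.
Prkaca: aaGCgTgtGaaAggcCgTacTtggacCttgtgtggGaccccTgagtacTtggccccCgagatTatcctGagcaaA
Prkacb: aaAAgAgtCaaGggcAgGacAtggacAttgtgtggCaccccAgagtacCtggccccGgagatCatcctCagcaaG
The GC content of this stretch was 54.7% in Prkaca and 56.0% in Prkacb, whereas over the whole coding sequence it was 52.9% and 48.6% and at codon position 3 it was 73.8% and 61.3%. Reads were counted per transcript by the authors, and reads that match a near-identical copy could be split by that counting, which was not tested.

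The catalytic subunits were also compared within each library, as Prkaca minus Prkacb. This comparison was chosen with earlier results of these data known, so its p is not evidence apart from the differences of the genes themselves. This difference was -4.30 in the lowest sham library, -3.91 at the median and -3.58 in the highest, and -3.58, -3.23 and -3.10 in the HF-HI libraries. Leaving aside HF-HI library 9, the HF-HI libraries all exceeded the highest sham value. The mean moved from -3.90 ± 0.225 (SD, n = 10) to -3.28 ± 0.135 (SD, n = 11), a shift of 0.62 toward Prkaca (permutation test with 100000 resamples, two-sided, p = 4.0e-05). With the GC trend removed the shift was 0.40 (permutation test, p = 4.0e-05), of which Prkaca itself accounted for 0.40 and Prkacb for -0.0039. Without HF-HI libraries 9 and 11, on the deposited values, the shift was 0.67 (exact permutation test, p = 2.2e-05, the smallest this design can give).

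**Figure D2:**
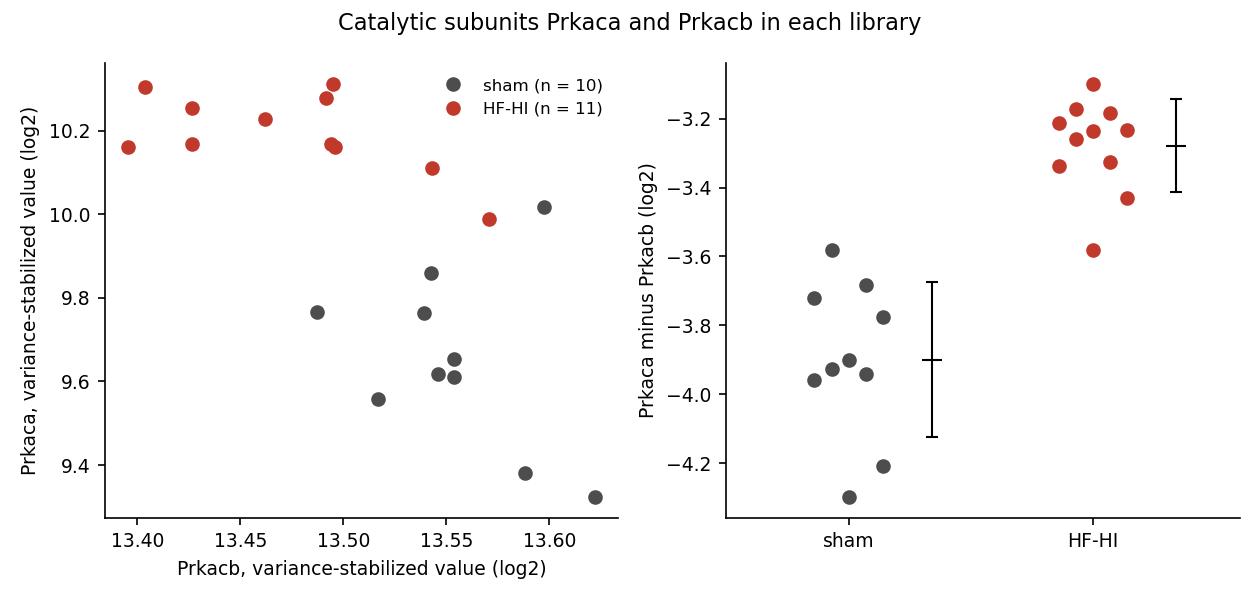
Left, the Prkaca value against the Prkacb value of each library (both log2), sham in grey and HF-HI in red; right, Prkaca minus Prkacb in each library (log2) with the mean and SD as a black bar. HF-HI libraries lie higher on Prkaca and mostly lower on Prkacb, and 10 of the 11 exceed every sham library on the difference.

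Prkar1b encodes the brain-enriched beta form of the type I regulatory subunit and lies on chromosome 5 at 139017306-139150001 on the minus strand, with exons of 55.6% GC. Its value was 11.96 in the lowest sham library, 12.41 at the median and 12.71 in the highest, and 12.53, 12.81 and 12.89 in HF-HI. Of the HF-HI libraries 9 of 11 lay above every sham library, and all 11 lay above the sham median. It rose by 0.41 (SE 0.0733, 95% confidence interval 0.26 to 0.56, adjusted p = 4.5e-05, limma), a 1.33-fold higher level. Of its exon bases 424 lie within the span of Gm15672, a transcript annotated on the same strand. The exons of Gm15672 were not compared, and whether reads there come from it was not tested.

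The other regulatory subunits did not pass the test. Prkar1a, the broadly expressed alpha form of type I (chromosome 11, 109649405-109669656, plus strand), was 13.02, 13.17 and 13.20 (lowest, median and highest) in sham and 13.01, 13.10 and 13.27 in HF-HI. Its difference was -0.033 (95% confidence interval -0.10 to 0.035, adjusted p = 0.38, limma). With library medians set equal it was -0.085 (adjusted p = 0.036) and with quantile normalization -0.081 (adjusted p = 0.047, both limma), while with the GC trend removed it was 0.020.

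Prkar2b, the beta form of the type II subunit that anchors PKA at membranes and the cytoskeleton of neurons (chromosome 12, 31958476-32061296, minus strand), ranged from 9.94 through 10.11 to 10.30 in sham and from 9.83 through 10.03 to 10.37 in HF-HI. The difference was -0.060 with a 95% confidence interval of -0.18 to 0.058 (adjusted p = 0.36, limma). The highest HF-HI value of both Prkar1a and Prkar2b was that of library 9.

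The balance of the subunit classes was followed as the mean of the 2 catalytic genes minus the mean of the 3 regulatory genes in each library. It was -0.26 ± 0.0959 (SD, n = 10) in sham, between -0.38 and -0.13, and -0.13 ± 0.0998 (SD, n = 11) in HF-HI, between -0.37 and 0.017. The groups overlapped, with 5 of 11 HF-HI libraries above every sham library, and the difference of the means was 0.12. No test was made of this score over chosen genes. Its parts moved unequally, since Prkaca minus Prkar1a differed by 0.57 and Prkaca minus Prkar2b by 0.60 between the groups, whereas Prkaca minus Prkar1b differed by 0.13 and Prkacb minus Prkar1b by -0.49.

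Among the adenylyl cyclases, Adcy1 was the only member that passed the test. It encodes the calcium- and calmodulin-stimulated cyclase of neurons and lies on chromosome 11 at 7063489-7178506 on the plus strand. Its values were 14.10, 14.26 and 14.38 (lowest, median and highest) in sham and 14.32, 14.40 and 14.56 in HF-HI. All 11 HF-HI libraries lay above the sham median and 7 above every sham library. It rose by 0.16 (SE 0.036, 95% confidence interval 0.081 to 0.23, adjusted p = 6.4e-04, limma), a 1.11-fold higher level, and with the GC trend removed the difference was 0.076 (adjusted p = 0.077, limma).

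Adcy5, the cyclase that dominates in striatum and that inhibitory G proteins and calcium restrain, varied most between mice. It lies on chromosome 16 at 35154877-35305738 on the plus strand, and its exons have the highest GC content of the 9 genes, 59.4%. Its values ran from 11.13 through 11.65 to 12.10 in sham and from 11.35 through 11.97 to 12.46 in HF-HI, and 3 of 11 HF-HI libraries were above every sham library. The difference of 0.23 (SE 0.122, 95% confidence interval -0.022 to 0.48) did not pass the test (adjusted p = 0.099, limma), and with the GC trend removed it was -0.021.

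The spread of Adcy5 moved with markers of striatal medium spiny neurons, cells that lie beneath the cortex. Of 9 such markers 7 were analysed, and their mean value was 10.36 to 10.74 in sham and 9.70 to 10.99 in HF-HI, a wider range. The list shares 4 genes with the pathway list below (Drd1, Adora2a, Ppp1r1b and Pde10a). Only Drd1 of the 7 passed the test, with a fall of 0.36. On deviations from the group means over 21 libraries, Adcy5 and the marker mean had a Pearson r of 0.82 (permutation test, adjusted p = 2.7e-04) and a Spearman rho of 0.85 (permutation test, adjusted p = 2.7e-04). The r was 0.73 within sham, 0.91 within HF-HI and 0.73 without the 2 libraries farthest from the median marker mean. With the marker mean as a covariate, chosen after seeing the data, the Adcy5 difference was 0.29 (adjusted p = 0.0018, limma). None of the other 8 genes passed the test for a relation with the marker mean.

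**Figure D3:**
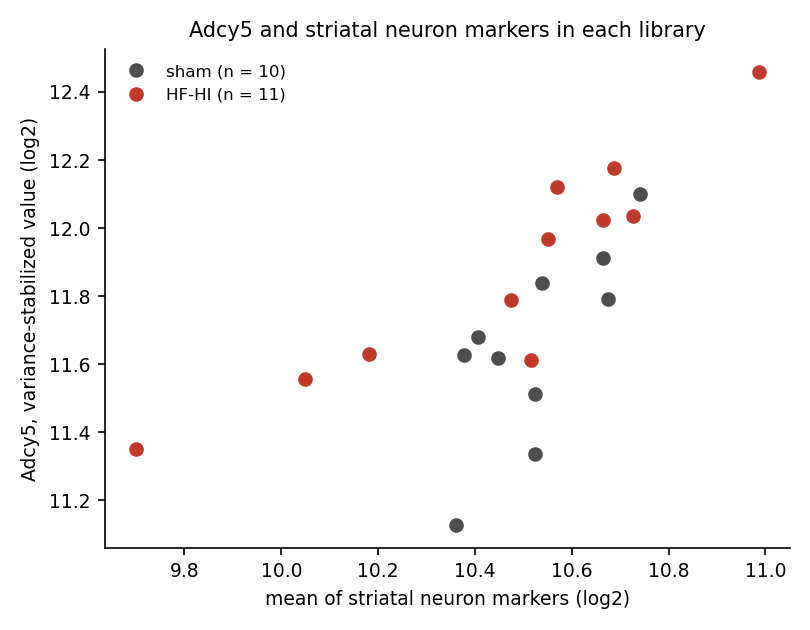
Adcy5 value (log2, vertical axis) against the mean value of 7 striatal neuron markers (log2, horizontal axis) in each library, sham in grey (n = 10) and HF-HI in red (n = 11). Adcy5 is high in libraries with a high marker mean in both groups, and HF-HI libraries reach both farther down and farther up on the marker mean.

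Adcy2 and Adcy9 had nearly the same mean in both groups. Adcy2, a cyclase that G protein beta-gamma subunits stimulate (chromosome 13, 68620043-68999541, minus strand), ranged from 10.62 through 10.86 to 11.01 in sham and from 10.67 through 10.80 to 11.12 in HF-HI, with a difference of 0.0077 (95% confidence interval -0.11 to 0.12, adjusted p = 0.91, limma). Of its exon bases 468 lie within the span of the antisense gene Gm35161, whose exons were not compared. Adcy9, a widely expressed cyclase (chromosome 16, 4287529-4420498, minus strand), ranged from 10.18 through 10.31 to 10.50 in sham and from 10.22 through 10.33 to 10.48 in HF-HI, with a difference of 0.0082 (95% confidence interval -0.078 to 0.095, adjusted p = 0.87, limma). With the GC trend removed the Adcy9 difference was -0.17 (adjusted p = 8.2e-04, limma), so that it passed the test as lower.

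Because the GC slope of the libraries moved with the group, all 9 genes were compared with and without that trend. Of all genes 59.7% passed the test with the trend removed, and of the PKA and cyclase genes 3 of 9 did: Prkaca and Prkar1b, which remained higher at 0.40 (SE 0.0542, adjusted p = 1.4e-06, limma) and 0.26 (SE 0.0634, adjusted p = 0.0014, limma), and Adcy9 with the value above. Across the 21 libraries, on deviations from the group means, the slope was related to Prkaca (r = 0.66, permutation test adjusted p = 0.015), Prkacb (r = -0.75, adjusted p = 5.4e-04), Prkar1a (r = -0.68, adjusted p = 0.013) and Adcy5 (r = 0.58, adjusted p = 0.035), out of 27 relations of the 9 genes with the slope, the depth and the striatal marker mean. By rank the first 3 of these passed as well, at rho of 0.71, -0.75 and -0.60 (permutation test, adjusted p = 0.013, 0.0016 and 0.038), and Adcy5 did not (rho = 0.54, adjusted p = 0.064). Without the 2 libraries of most extreme slope the r was 0.51, -0.68, -0.53 and 0.44 in the same order. The slope was computed from the values of all genes with a known GC content, these 9 included. A gene rich in GC is therefore inclined by construction to move with the slope, and one poor in GC against it. No relation with depth passed the test.

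**Figure D4:**
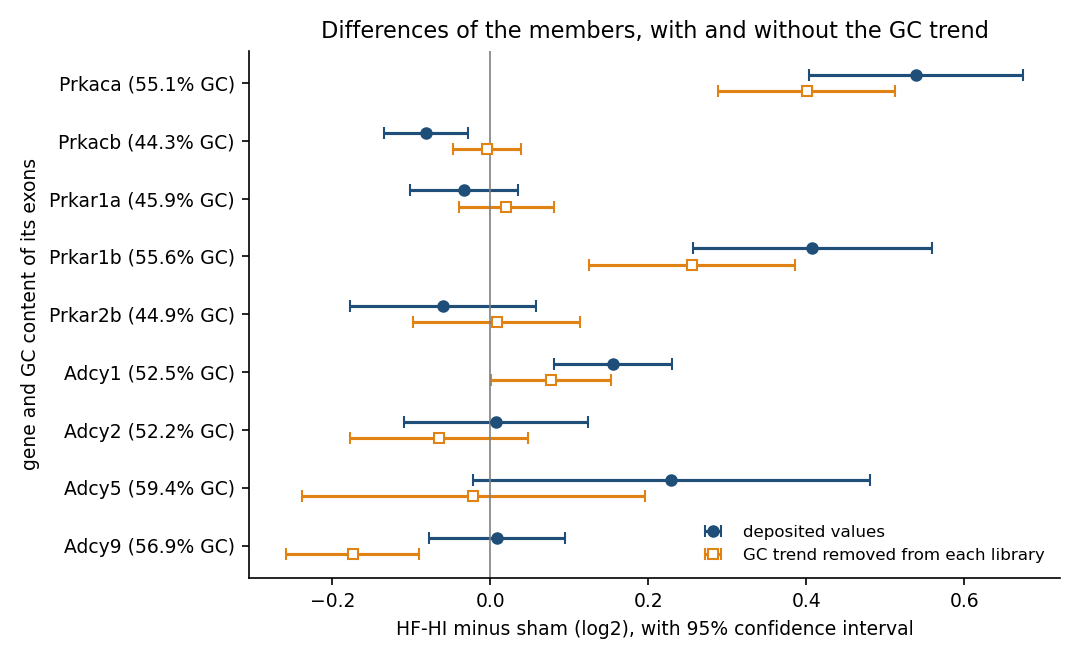
Difference between HF-HI and sham (log2, horizontal axis) of the 9 genes with 95% confidence intervals, from the deposited values (filled circles) and once the GC trend had been taken out of every library (open squares); exonic GC content stands beside each name. Prkaca and Prkar1b lie to the right of 0 in both, Prkacb moves onto 0 and Adcy9 moves to the left of it.

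Levels of the genes were compared per kilobase of exon, as the value minus log2 of the merged exon length. In sham the order from high to low was Prkar1a (11.02), Adcy1 (10.61), Prkar1b (10.44), Prkacb (10.42), Adcy5 (8.81), Adcy2 (8.75), Prkaca (8.34), Prkar2b (8.21) and Adcy9 (7.94). The first 4 stood apart from the rest, with a gap of 1.61 between Prkacb and Adcy5 and no overlap of their libraries. Prkar1b and Prkacb did not differ beyond their spread in sham, Prkar1b being higher in 6 of 10 libraries, and neither did Adcy5 and Adcy2 (6 of 10) nor Prkaca and Prkar2b (7 of 10).

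By this length some neighbours stood in another order in HF-HI. Prkar1b stood at 10.85 and was above Prkacb (10.34) in all 11 libraries, and above Adcy1 (10.76) in 10 of 11. Prkaca stood at 8.88, above Prkar2b (8.15) in all 11 libraries without overlap and above Adcy2 (8.76) in 8 of 11, where in sham it was below Adcy2 in all 10. Prkacb exceeded Prkaca by 2.08 ± 0.225 (SD, n = 10) in sham and by 1.46 ± 0.135 (SD, n = 11) in HF-HI. When the longest annotated transcript gave the length these leads were 2.97 and 2.35, since the 8 annotated Prkacb transcripts merge to 8.77 kb of exon while the longest has 4.35 kb. With that length Prkacb, at 11.43, stood first in sham, and Prkar1b (10.97) was above Adcy1 (10.64) in sham already and beside Prkacb in HF-HI (11.38 and 11.35), so that the order of these neighbours depends on the length used. The variance stabilization adds an offset to low counts, so the distances of the lower genes may be understated.

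The members were also set against each other across libraries, on deviations from the group means, in 36 pairs. A single pair passed the test, Prkaca with Prkar1a, with a Pearson r of -0.64 and a Spearman rho of -0.68 (permutation tests, n = 21, adjusted p = 0.038 and 0.040). The r was -0.73 within sham, -0.64 within HF-HI and -0.63 without the 2 libraries of most extreme Prkaca. Both genes are related to the GC slope with opposite sign, as given above. The 2 genes that rose most, Prkaca and Prkar1b, had an r of 0.53 (permutation test, adjusted p = 0.27), and the catalytic genes an r of -0.36 (permutation test, adjusted p = 0.28).

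By the same deviations, the 3 genes of the table most like Prkaca were 2900011O08Rik (r = 0.92), Ubqln4 (r = 0.90) and Snd1 (r = 0.89), given as a description over 21 libraries. All 3 rose in HF-HI, by 0.36, 0.90 and 0.38, and their exons are 47.6%, 55.1% and 49.4% GC. Those most like Prkacb were Fam171b (r = 0.89), Hdgfl3 (r = 0.82) and Megf9 (r = 0.82), with exons of 43.9%, 41.9% and 42.3% GC. Their differences between the groups were 0.21 for Fam171b and -0.27 for Hdgfl3, both past the test, and -0.017 for Megf9, which was not.

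The rest of the cyclic AMP pathway was read from 82 listed genes, of which 50 were in the table. In the test across all genes 19 rose and 14 fell, which is 66.0% of the 50 close to the 66.3% of all genes, and the median difference was 0.037 where that of all genes was -0.0086. The groups did not overlap for 7 of the 50, or 14.0%, against 13.5% of all genes. With the GC trend removed 25 of the 50 passed, 17 higher and 8 lower, where 59.7% of all genes did. The account below follows the signal from receptor to target and names up to 2 genes of each role, those with the largest difference. A role holds 1 to 11 genes, too few to read its counts against the shares of all genes.

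**Figure D5:**
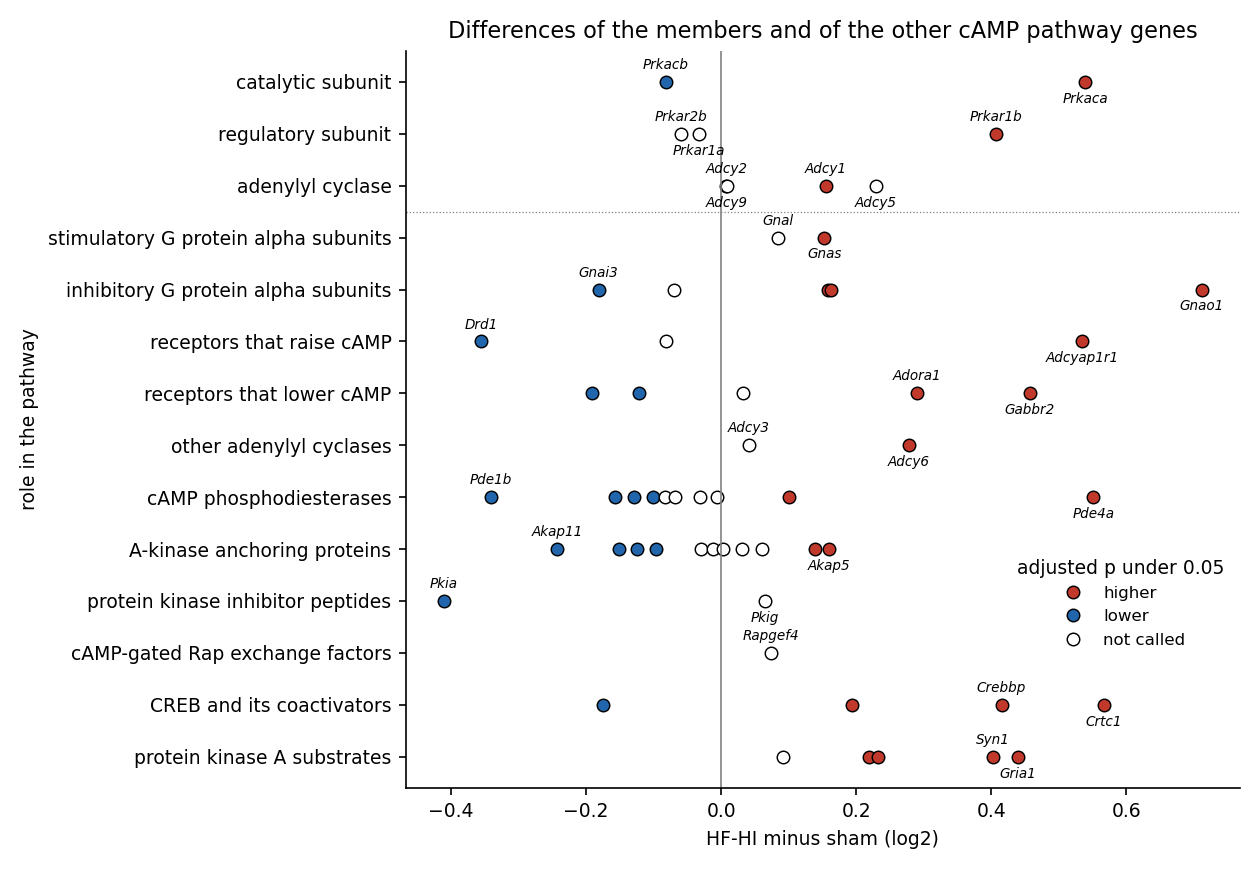
Difference between HF-HI and sham (log2, horizontal axis) of the 9 PKA and cyclase genes, above the dotted line, and of 50 other cyclic AMP pathway genes by role, with genes that passed the test as higher in red, as lower in blue and the others in white. Gnao1 lies farthest to the right, at 0.71, and Pkia farthest to the left, at -0.41.

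At the receptors, Adcyap1r1, the receptor for the peptide PACAP that raises cyclic AMP, rose by 0.54 (adjusted p = 5.1e-06, limma), and Drd1, the dopamine receptor that raises it in striatal neurons, fell by 0.36 (adjusted p = 0.0069, limma). Of the 5 receptors that lower cyclic AMP 2 rose and 2 fell, and the largest differences were those of the GABA-B subunit Gabbr2, 0.46 (adjusted p = 1.0e-06, limma), and of the adenosine A1 receptor Adora1, 0.29 (adjusted p = 1.1e-07, limma). The groups were fully apart for both of these genes. With the GC trend removed Gabbr2 stood at 0.31 (adjusted p = 1.6e-05) and Adora1 at 0.15 (adjusted p = 3.9e-04, both limma).

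The G proteins showed the largest difference of the pathway. Gnao1, the alpha subunit of Go and the most abundant G protein of brain, ran from 11.27 through 11.44 to 11.64 in sham and from 11.97 through 12.10 to 12.41 in HF-HI, with no overlap, and rose by 0.71 (SE 0.057, adjusted p = 9.0e-10, limma). Of the 5 alpha subunits of the inhibitory class 3 rose, and Gnai3 fell by 0.18. With the GC trend removed Gnao1 was the only one of the 5 still called, at 0.61, and Gnai3 stood at -0.056 (adjusted p = 0.24, limma). Gnas, the stimulatory alpha subunit, rose by 0.15 (adjusted p = 8.4e-04, limma) but stood at -0.043 with the GC trend removed, and Gnal, its relative in striatum and olfactory neurons, had a difference of 0.085 (adjusted p = 0.27, limma). With the striatal marker mean as a covariate, chosen after seeing the data, the Gnal difference was 0.12 (adjusted p = 0.0099, limma).

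Of the cyclases outside the set, Adcy6, the closest relative of Adcy5, rose by 0.28 (adjusted p = 4.8e-05, limma). Adcy6 stood at 0.11 with the GC trend removed (adjusted p = 0.019, limma), and its call was lost with the replicate number as a block beside it (0.11, adjusted p = 0.065) or with GC and length trends removed (0.072, adjusted p = 0.10, both limma). Adcy3 had a difference of 0.041 (adjusted p = 0.37, limma) that became -0.13 (adjusted p = 0.0047, limma) with the GC trend removed. Among 10 phosphodiesterases 2 rose and 4 fell. Pde4a, a cyclic AMP-specific enzyme, rose by 0.55 (adjusted p = 4.8e-09, limma) with no overlap between the groups, and Pde1b, a calcium-dependent enzyme, fell by 0.34 (adjusted p = 0.0027, limma). With the GC trend removed Pde4a stood at 0.35 (adjusted p = 2.7e-07) and Pde1b at -0.44 (adjusted p = 2.9e-04, both limma).

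The proteins that bind PKA itself gave smaller or opposite values. Pkia, the peptide inhibitor that blocks the free catalytic subunit, was 11.39, 11.46 and 11.59 (lowest, median and highest) in sham and 10.95, 11.06 and 11.19 in HF-HI. The groups were fully apart, and Pkia fell by 0.41 (SE 0.0366, adjusted p = 4.4e-09, limma), or by 0.25 with the GC trend removed (adjusted p = 6.1e-07, limma). Its relative Pkig had a difference of 0.065 (adjusted p = 0.19, limma), or -0.068 with the GC trend removed. Of 11 A-kinase anchoring proteins, the scaffolds that hold the regulatory subunits, 2 rose and 4 fell. Akap11 was lower in fully separate groups (a difference of -0.24, adjusted p = 9.3e-08, limma), and with the GC trend removed it stood at -0.10 (adjusted p = 5.1e-04, limma). Akap5, the scaffold of the postsynaptic density, was higher by 0.16 (adjusted p = 0.028, limma). The Akap5 call was lost with library medians centred (adjusted p = 0.13, limma), with the replicate block (adjusted p = 0.062, limma), by the rank test (adjusted p = 0.074), without HF-HI libraries 9 and 11 (adjusted p = 0.082, limma), and on leaving out any of sham libraries 2, 3 and 4 or HF-HI library 9 alone (adjusted p = 0.0501 to 0.0603, limma). With the GC trend removed the Akap5 difference was larger, 0.24 (adjusted p = 0.0017, limma).

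Downstream, 3 of the 4 genes for CREB and its coactivators rose and 1 fell. Crtc1, the neuronal coactivator that calcium and cyclic AMP send to the nucleus, rose by 0.57 (adjusted p = 6.9e-06, limma), the acetyltransferase Crebbp rose by 0.42 (adjusted p = 1.8e-07, limma), and Creb1 itself fell by 0.17 (adjusted p = 0.0064, limma). Creb1 stood at -0.018 with the GC trend removed (adjusted p = 0.71, limma), and the call was lost. Creb1 is named beside the rule of 2 genes a role, after its value was seen. Of 5 PKA substrates 4 rose, among them the AMPA receptor subunit Gria1 by 0.44 (adjusted p = 1.1e-04, limma) and the vesicle protein Syn1 by 0.40 (adjusted p = 2.1e-04, limma). Syn1 stood at 0.20 with the GC trend removed (adjusted p = 0.047, limma), and with the replicate block beside that its call was lost (adjusted p = 0.052, limma). The cyclic AMP-gated exchange factor Rapgef4, which acts beside PKA, had a difference of 0.074 (adjusted p = 0.19, limma). With the GC trend removed the Rapgef4 difference was 0.13 (adjusted p = 0.020, limma), so that it passed the test as higher.

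CREB binds the cyclic AMP response element, whose letters are TGACGTCA, and its core TGACG, read on either strand (as TGACG or CGTCA), is contained in the full element. RefSeq promoters of 300 bases (250 before to 50 after a start, GRCm38.p6) were matched by symbol for all 10 listed genes, with 23 entries. The full element was found in 2 of the 23, both of Prkar1a and both covering the same site, and in 1.79% of the 32851 promoters of all genes. The core was found in 8 of the 23, those 2 overlapping entries included, and in 20.8% of all promoters. Of the most upstream promoters of the 10 genes 4 held it. These promoters were 48.7% GC for Prkar1a and 67.7% (Prkar1b) to 79.0% (Adcy5) for the rest, where the median of all promoters was 52.7%. The core itself holds a CG, and promoters of like GC content were not compared. The site of Prkar1a is shown with 20 bases on each side and the element in capitals, at chr11:109650880-109650927 on the plus strand, where it ends 41 bases before a RefSeq start inside the gene. In the other entry that covers this site the element lies after the start.
Prkar1a: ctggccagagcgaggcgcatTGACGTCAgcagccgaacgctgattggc
The most upstream promoters of Prkaca and Prkacb held the core 2 times and 1 time and no full element. The 250 bases before the most upstream RefSeq start of each catalytic gene are shown, since these are the genes whose levels were compared with each other, with the core in capitals, at chr8:83972728-83972977 on the plus strand for Prkaca and chr3:146812947-146813196 on the minus strand for Prkacb.
Prkaca: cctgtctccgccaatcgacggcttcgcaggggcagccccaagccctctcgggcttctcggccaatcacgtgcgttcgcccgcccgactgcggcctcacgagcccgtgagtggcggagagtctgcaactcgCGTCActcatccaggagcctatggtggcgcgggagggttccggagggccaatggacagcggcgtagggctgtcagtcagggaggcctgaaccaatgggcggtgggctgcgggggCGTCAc
Prkacb: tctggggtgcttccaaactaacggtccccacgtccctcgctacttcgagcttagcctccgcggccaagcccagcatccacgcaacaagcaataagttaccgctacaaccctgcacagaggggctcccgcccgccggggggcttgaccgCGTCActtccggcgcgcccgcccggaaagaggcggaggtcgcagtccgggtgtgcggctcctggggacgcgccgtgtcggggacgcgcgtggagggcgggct
Both stretches are rich in G and C, at 68.8% for Prkaca and 69.2% for Prkacb. A match of letters is a description of the sequence and not a binding site.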

How the data were processed

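The data are RNA-seq libraries of cortex, 10 from sham and 11 from HF-HI mice, grouped by their labels. Ribosomal RNA was depleted and strand-specific libraries were sequenced. STAR alignment to mm10 was followed by eXpress counting of transcripts and by DESeq2 normalization, with the versions of STAR and eXpress and the annotation not given in the sources used here. The authors deposited variance-stabilized log2 values, 1 per Ensembl gene and library, for 5544 genes. Without counts a count model could not be used, and the total depth is unknown. Relative depth came from the spacing between values that lie at 500 to 600 once the log2 scale is undone. Differences on this scale understate log2 ratios of low genes.

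Symbols, positions, merged exon lengths and GC content (5539 genes matched) came from GENCODE vM21 of GRCm38, the assembly mm10. The groups were set against each other by limma 3.58.1 (R 4.3.3, lmFit and eBayes with trend, no covariate, two-sided, Benjamini-Hochberg adjusted p under 0.05 over all genes). This step was checked on simulated data of independent genes. Those data had no GC slope or depth difference between the groups, so calls that follow such differences were not checked. The precision is that of the spread between libraries, the SD within a group being 0.104 for the median gene. Relations across libraries used permutation tests with 100000 resamples, adjusted over all relations of a kind. GC trends were removed per library with a lowess curve of span 0.3, which also removes biology that follows GC content. Alternatives were another threshold or minimum difference, no variance trend, a rank test, centring, quantile normalization, a filter on low values, the replicate number as a block, GC and length trends, depth as a covariate, leaving out each library, and, added after seeing the data, leaving out HF-HI libraries 9 and 11 and a striatal marker covariate. The rest used statsmodels 0.14.6, pandas 2.3.3, matplotlib 3.10.9, scipy 1.17.1 and numpy 2.4.6 under Python 3.11.15.

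Genes named are all members, the 2 pathway genes per role with the largest difference, the 3 genes most like Prkaca and Prkacb, and the markers. The members and lists were chosen with earlier results of these data known. The microglial marker list is not reported here.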

Additional observations from a re-analysis of the deposited data

Results flagged for a closer look

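Of 33 groups of values examined in the sham libraries (groups of more than 10 libraries were not tested), 1 held a library far from the others, where chance gives about 1 in 20. Adcy3, a cyclase outside the set, had a value of 8.95 in sham library 3, below a group median of 9.16 and a next lowest value of 9.10.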

How the results depend on the processing

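Prkaca and Prkar1b kept their direction and their call under all 14 settings and in all 21 fits that left out a library, with differences of 0.40 to 0.57 and 0.26 to 0.43 over the settings. Prkacb ran from -0.13 to -0.0039 and lost its call with the GC trend removed, with or without the replicate block, and under the minimum difference. Adcy1 ran from 0.0066 to 0.16 and lost its call wherever the GC trend was removed and under the minimum difference. A minimum absolute difference of 0.25 left 1433 calls of all genes, 2 of the 9 genes and 13 of the pathway genes, by the construction of that setting. Centring library medians gave 3824 calls, 1448 higher and 2376 lower, against 1810 higher and 1864 lower on the deposited values, and 3 higher and 2 lower among the 9 genes. Leaving out each library gave 3562 to 3805 calls of all genes, 4 to 5 of the 9 genes and 30 to 33 of the pathway genes. The replicate number as a block gave 3497 calls of all genes, 4 of the 9 and 31 of the pathway genes, a Prkaca minus Prkacb shift of 0.64 (exact permutation test within pairs, p = 0.0020) and a catalytic minus regulatory difference of 0.12. The numbers did not pair the libraries: over 10 pairs the correlation of the deviations ran from -0.31 to 0.36, and 0 libraries correlated best with their own number.

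The following values changed sign, and the cause was not tested. With the GC trend removed, with it removed beside the replicate block, and with GC and length trends removed, Prkar1a was 0.020, 0.021 and 0.041, Prkar2b 0.0084, 0.0094 and 0.050, Adcy2 -0.065, -0.053 and -0.041, Adcy5 -0.021, -0.019 and -0.060, Adcy9 -0.17, -0.17 and -0.18, Gnas -0.043, -0.040 and -0.11, Adcy3 -0.13, -0.13 and -0.16, and Pkig -0.068, -0.068 and -0.037. With library medians centred, Adcy2 was -0.044, Adcy9 -0.044 and Adcy3 -0.011. With quantile normalization Adcy2 was -0.0024 and Adcy9 -0.016, with depth as a covariate they were -0.0013 and -0.0066, and with the striatal marker covariate Adcy2 was -0.00086. Leaving out each library gave -0.021 to 0.028 for Adcy2 and -0.0072 to 0.028 for Adcy9. Adcy5 passed the test in 2 of the 21 fits that left out a library, without sham library 8 (0.28, adjusted p = 0.045) and without HF-HI library 3 (0.28, adjusted p = 0.037, both limma). The length per kilobase of the longest transcript moved the Prkacb lead over Prkaca, as the mean of all 21 libraries, from 1.76 to 2.64. Depth limits what the low differences can show, since total counts are unknown.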
